A study of Homo sapiens with 4 samples.

Results

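The 10 genes described here encode the fibrinogen chains and coagulation factors that hepatocytes secrete into plasma: the fibrinogen chains FGA, FGB and FGG, prothrombin (F2), factors V, VII, X and XII (F5, F7, F10 and F12), protein C (PROC) and protein S (PROS1). They were found by symbol in the deposited table. All 10 were among its 18806 genes, and all 10 were among the 11971 genes that were tested. The cells were Huh7, a line from a human hepatocellular carcinoma, grown from a single clone that expressed Cas9 and infected with a lentiviral guide. The control group carried a non-targeting guide (sgNS, 2 libraries, labelled WT) and the other group carried a guide against METTL16 (METTL16 KO, 2 libraries, labelled as a knockdown), which encodes an RNA m6A methyltransferase. Both groups were selected with hygromycin B, and the study's figures name 1 METTL16 guide for these libraries. The methods of the study describe the replicates as biological, without saying whether they were separate infections or cultures, and p-values measure the spread between these libraries. For the library type the labels name both ribosomal RNA depletion and an mRNA kit.

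Coagulation is a chain of protease activations that ends in thrombin, the active form of prothrombin, which cuts soluble fibrinogen into fibrin. Tissue factor with factor VII starts the extrinsic route and factor XII the contact route, and both lead to factor X, which together with its cofactor factor V activates prothrombin. Protein C with its cofactor protein S shuts the cascade down by cutting the activated forms of factors V and VIII. Prothrombin, factors VII and X, protein C and protein S need vitamin K, because an enzyme that uses it carboxylates glutamate residues near their amino ends. Fibrinogen is also a classical acute-phase protein of the liver, whose genes respond to interleukin-6 through STAT3 and C/EBP proteins, whereas HNF4 and FOXA factors drive hepatocyte expression of many coagulation genes.

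The 3 fibrinogen genes lie next to each other on chromosome 4 of GRCh38, FGB from 154563011 to 154572807 on the plus strand, FGA from 154583126 to 154590742 and FGG from 154604134 to 154612967 on the minus strand. F7 (113105788 to 113120685) and F10 (113122799 to 113149529) lie on the plus strand of chromosome 13, with 2113 bases between them. The other 5 genes are scattered. F2 is on chromosome 11 (46719196 to 46739506, plus), F5 on chromosome 1 (169511951 to 169586588, minus), F12 on chromosome 5 (177402133 to 177416583, minus), PROC on chromosome 2 (127418427 to 127429242, plus) and PROS1 on chromosome 3 (93873051 to 93980003, minus).

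The 250 bases before the RefSeq start sites (GRCh38.p14) of the fibrinogen genes, which changed in the same direction, and of F2, which fell most, are printed 5′ to 3′ on the strand of the gene. They cover chr4:154590743-154590992 (minus strand) for FGA, chr4:154562761-154563010 (plus) for FGB, chr4:154612657-154612906 (minus) for FGG and chr11:46718963-46719212 (plus) for F2. The RefSeq starts of FGG and F2 are not those of the GENCODE gene models, nor are those of F5, F7, F12 and PROS1, whose windows are not printed. The windows of F12 (chr5:177409565-177409814) and PROS1 (chr3:93973897-93974146) lie inside the GENCODE gene models. Capitals mark 2 motifs on either strand, CTGGGA (core of the interleukin-6 response element) and TTGCNNAA (C/EBP-type site).
FGA: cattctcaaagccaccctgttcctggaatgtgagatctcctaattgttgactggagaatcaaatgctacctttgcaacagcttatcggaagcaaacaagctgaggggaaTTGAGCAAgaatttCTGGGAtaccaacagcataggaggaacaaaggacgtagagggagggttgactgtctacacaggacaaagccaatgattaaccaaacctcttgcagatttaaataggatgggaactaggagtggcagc
FGB: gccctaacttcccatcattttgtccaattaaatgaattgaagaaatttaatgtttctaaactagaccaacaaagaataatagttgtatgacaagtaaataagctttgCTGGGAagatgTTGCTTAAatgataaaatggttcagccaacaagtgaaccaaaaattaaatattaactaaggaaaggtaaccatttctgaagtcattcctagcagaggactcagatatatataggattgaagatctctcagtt
FGG: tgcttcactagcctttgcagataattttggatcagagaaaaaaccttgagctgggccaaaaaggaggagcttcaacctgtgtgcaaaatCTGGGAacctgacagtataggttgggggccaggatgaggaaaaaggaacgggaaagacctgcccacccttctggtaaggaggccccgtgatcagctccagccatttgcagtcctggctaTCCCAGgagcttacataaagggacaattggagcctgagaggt
F2: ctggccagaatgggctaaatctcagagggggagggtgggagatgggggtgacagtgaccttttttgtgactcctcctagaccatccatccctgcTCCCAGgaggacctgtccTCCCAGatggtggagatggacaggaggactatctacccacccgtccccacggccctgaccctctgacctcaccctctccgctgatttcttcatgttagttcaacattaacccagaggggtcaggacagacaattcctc
CTGGGA or its complement TCCCAG stood in all 3 fibrinogen windows. On the coding strand it began 127 bases before the start of FGA, 143 before that of FGB and 161 before that of FGG. It was also found in F2, F5, F10 and PROS1, so that 7 of the 10 genes held it, and 28.7% of the 35116 promoter windows of the same length did. FGA and FGB held a C/EBP-type site near CTGGGA, written TTGAGCAA in FGA and TTGCTTAA in FGB, against 9.05% of all windows. The FOXA core TGTTTNC was found in FGA and PROS1 (15.5% of all windows) and the HNF4 half-site ACTTTG in F7 (10.3%). F12 and PROC held none of the 4 motifs in this window, and no match overlapped another. Such matches describe letters and were not tested as binding sites. The motifs were chosen after the windows were read, so the counts beside the shares of all windows test nothing.

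The deposited values were TPM, transcript abundances per length that sum to 1000000 in every library, and were compared on the log2(TPM + 0.1) scale with limma, with Benjamini-Hochberg adjustment over the 11971 genes. Read counts cannot be had from TPM, which leaves the depth unknown, and the pseudocount understates the change of low genes. For a single gene, an exact permutation test of 2 libraries against 2 cannot go below p = 0.33, and limma instead borrows the spread from the other genes. The METTL16 transcript itself measured 26.29 and 25.14 TPM with the control guide, against 17.62 and 18.75 TPM in METTL16 KO. It was lower in both METTL16 KO libraries but still present (log2 fold change -0.50, adjusted p = 2.4e-05 in limma). The level of the transcript does not measure loss of the protein, for which the paper shows Western blots of Huh7 cells. Over all genes tested the median log2 fold change was 0.16, and dividing each library by its median ratio removes this shift. Hepatocyte markers were abundant in every library, where 10 markers summed to 20984.4 and 21117.0 TPM in sgNS and to 33167.2 and 32791.9 TPM in METTL16 KO. Of these, 6 rose and 3 fell (5 rose after median-ratio scaling), where 50.1% of all genes tested were higher and 25.6% lower. AFP, the fetal albumin-like protein, had a log2 fold change of 2.54. The 8 endothelial and megakaryocyte markers summed to 6.4 and 5.3 TPM in sgNS and 4.4 and 4.0 TPM in METTL16 KO, with KDR, TEK and PF4 listed at 0 in all 4 libraries. The 8 stromal and immune markers summed to 7.3 and 6.2 TPM in sgNS and 14.3 and 13.1 TPM in METTL16 KO. Of these 8, 3 were tested, with 2 higher and 1 lower (1 higher and 1 lower after median-ratio scaling). CD68 measured 3.40 and 2.72 against 8.86 and 8.57 TPM, while PDGFRB fell from 1.65 and 1.34 to 1.05 and 0.76 TPM. The part of these markers in the results was not tested.

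All 3 fibrinogen chains rose in METTL16 KO, and so did F12. F2, F7, F10, PROC and F5 fell, and PROS1 did not pass the test. In bulk RNA, a change in the number of cells that express a gene and a change in its RNA per cell cannot be told apart. At an adjusted p under 0.05 in limma, 4 of the 10 genes were thus higher and 5 lower, where 75.7% of all genes tested passed (50.1% higher and 25.6% lower), so passing alone sets these genes little apart. With the study's own thresholds (unadjusted p under 0.01, log2 fold change of 1 or more in either direction), FGA, FGB, FGG and F12 were higher and F2 was lower. That is 5 of the 10 genes against a background of 11.4% (7.69% higher and 3.75% lower). The 10 genes were chosen with earlier results of these data known, so this share describes them and tests nothing. The libraries of the groups did not overlap for 9 of the 10 genes, against 87.4% of all genes (56.8% higher and 30.7% lower). The median log2 fold change of the 10 genes was -0.13, and that of all genes 0.16.

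**Figure D1:**
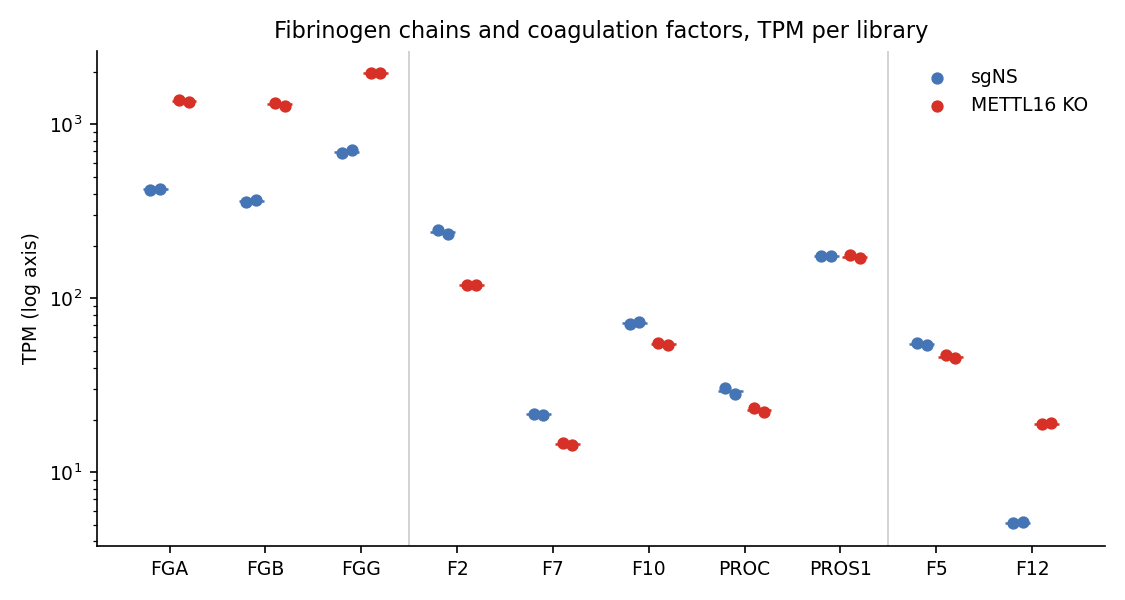
TPM of each gene in each library on a log axis, grouped as fibrinogen chains, vitamin K-dependent proteins, and F5 and F12 (points, libraries; lines, group means; n = 2 per group). The METTL16 KO points lie above the sgNS points for FGA, FGB, FGG and F12, below them for F2, F7, F10, PROC and F5, and around them for PROS1.

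**Figure D2:**
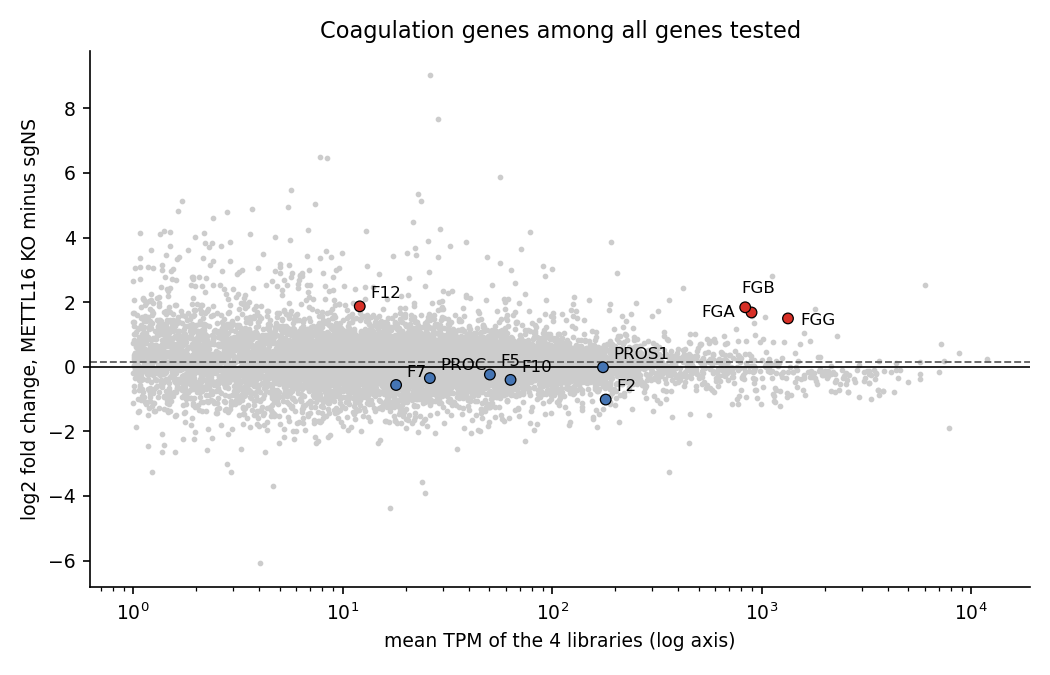
Log2 fold change of the 11971 genes tested against mean TPM on a log axis (grey), with the 10 genes in red where the value is above 0 and blue where it is below, whether or not it passed the test. The dashed line is the median of all genes, 0.16, and F12 and the fibrinogen chains lie at about the same height at very different abundance.

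The fibrinogen chains were the most abundant of the 10 transcripts in both groups. FGA, the alpha chain, whose amino end carries fibrinopeptide A that thrombin removes, measured 421.86 and 427.83 TPM in the sgNS libraries, against 1379.69 and 1345.29 TPM in METTL16 KO. FGB, the beta chain, measured 357.76 and 369.58 TPM in the sgNS libraries, against 1330.57 and 1276.46 TPM in METTL16 KO. FGG, the gamma chain, which holds sites for the platelet integrin receptor and for cross-linking by factor XIII, measured 683.36 and 713.21 TPM in the sgNS libraries, against 1970.10 and 1968.98 TPM in METTL16 KO. For each chain, both METTL16 KO libraries were high and both sgNS libraries low, with a gap many times the spread within a group. The mean was 3.21-fold higher for FGA, 3.58-fold for FGB and 2.82-fold for FGG. The log2 fold changes were 1.68 (standard error 0.028) for FGA, 1.84 (0.032) for FGB and 1.50 (0.028) for FGG, and limma's adjusted p was 8.7e-12, 8.7e-12 and 1.7e-11. These values lay at percentiles 97.7, 98.0 and 96.8 of all genes tested. Among all genes of a library, FGG ranked 214 and 204 with the control guide and 62 and 63 in METTL16 KO, and FGB ranked 406 and 393 against 108 and 112. Together the 3 chains took 0.146% and 0.151% of all TPM in sgNS and 0.468% and 0.459% in METTL16 KO.

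The balance between the chains also differed between the groups. In the secreted hexamer each chain is present in the same number of copies, and the transcript ratios within a library do not depend on a scaling factor for the library. The ratio of FGG to FGB was 1.91 and 1.93 in sgNS and 1.48 and 1.54 in METTL16 KO. That of FGA to FGB was 1.18 and 1.16 in sgNS and 1.04 and 1.05 in METTL16 KO, and that of FGG to FGA was 1.62 and 1.67 against 1.43 and 1.46. All of these ratios were thus nearer to 1 in METTL16 KO, with no overlap between the groups. They are ratios of RNA and do not measure the protein chains, and any 1 of them follows from the other 2. On the log2 scale they differed by -0.35 (FGG/FGB), -0.16 (FGA/FGB) and -0.18 (FGG/FGA), with replicate SDs from 0.010 to 0.042 (n = 2 per group). An exact two-sided permutation test gave p = 0.33 for each, which is the smallest p that 2 libraries against 2 allow. FGG supplied 46.7% and 47.2% of the summed fibrinogen TPM in sgNS and 42.1% and 42.9% in METTL16 KO, while FGB went from 24.5% in both sgNS libraries to 28.4% and 27.8%. The share of FGA was 28.8% and 28.3% against 29.5% and 29.3%.

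**Figure D3:**
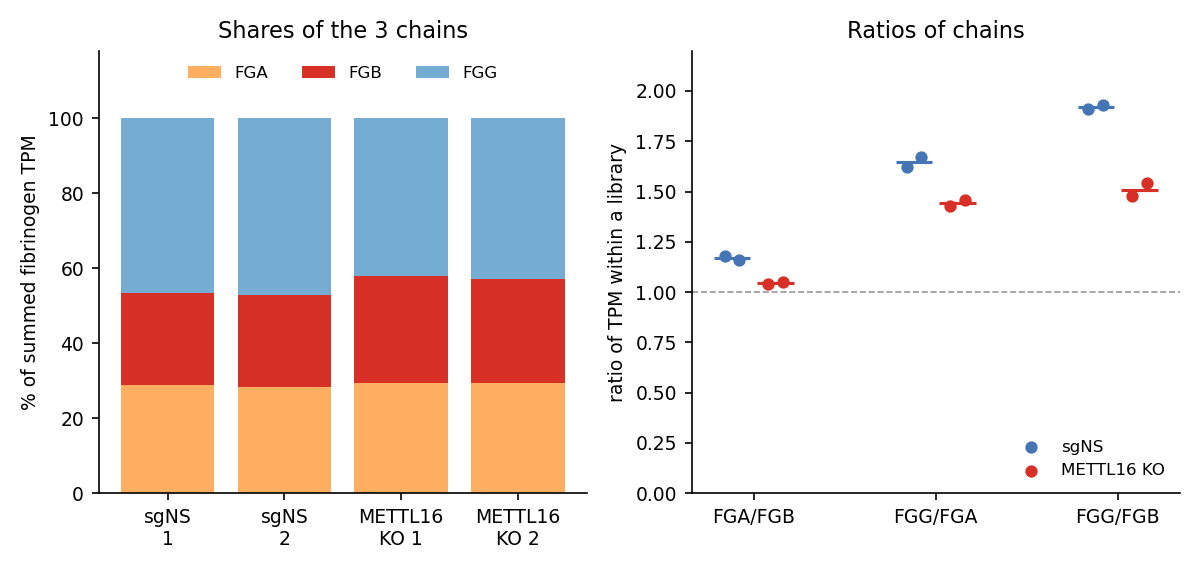
Left, share of FGA, FGB and FGG in the summed fibrinogen TPM of each library in percent. Right, ratios of TPM between chains within each library (points, libraries; lines, group means; dashed line, a ratio of 1). The METTL16 KO points are closer to 1 than the sgNS points for each ratio.

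Apart from the chains, 2 genes tested lay within 500 kb of the fibrinogen cluster. PLRG1, a spliceosome component, measured 62.52 and 67.19 TPM in the sgNS libraries, against 102.97 and 101.64 TPM in METTL16 KO (log2 fold change 0.66), and DCHS2, a cadherin-related gene, had a log2 fold change of -1.02. PLRG1 thus moved in the direction of the chains and DCHS2 in the opposite direction.

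Among the vitamin K-dependent proteins, 4 of 5 fell and none rose, where 25.6% of all genes tested were lower. After median-ratio scaling all 5 passed as lower, as did 4375 of all 11971 genes tested. F2 encodes prothrombin, the zymogen of thrombin, and measured 247.57 and 234.29 TPM in the sgNS libraries, against 118.74 and 119.30 TPM in METTL16 KO. The groups were far apart, and the sgNS mean was 2.02-fold that of METTL16 KO. On the log2 scale F2 differed by -1.02 (standard error 0.038, adjusted p = 2.4e-09 in limma), at percentile 3.65 of all genes. As this value lies close to the fold threshold of the study, F2 no longer passed it when sgNS replicate 1 was left out, with a log2 fold change of -0.98. F7, the protease that tissue factor binds, measured 21.69 and 21.28 TPM in the sgNS libraries, against 14.71 and 14.27 TPM in METTL16 KO. F10, where the extrinsic and intrinsic routes meet, measured 71.61 and 72.67 TPM in the sgNS libraries, against 55.12 and 53.67 TPM in METTL16 KO. PROC, the anticoagulant protease, measured 30.46 and 28.04 TPM in the sgNS libraries, against 23.53 and 22.25 TPM in METTL16 KO. In each of these 3 genes both METTL16 KO libraries were below both sgNS libraries. Their log2 fold changes were -0.57 (standard error 0.062), -0.41 (0.043) and -0.35 (0.062), and limma's adjusted p was 9.1e-06, 7.5e-06 and 3.6e-04. F10 overlaps the antisense gene F10-AS1, whose reads may not be told apart if the counting ignored strand. The paper names a stranded library kit but does not give this setting. Within a library the ratio of F2 to F10 was 3.46 and 3.22 in sgNS and 2.15 and 2.22 in METTL16 KO (exact two-sided permutation p = 0.33), with no overlap between the groups.

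PROS1 encodes protein S, the cofactor of activated protein C. Its transcript measured 175.83 and 175.51 TPM in the sgNS libraries, against 176.45 and 171.15 TPM in METTL16 KO. The sgNS values lie between the METTL16 KO values, and on the log2 scale the means differed by -0.02 (standard error 0.035, adjusted p = 0.70 in limma). Relative to the median of all genes the difference was -0.18, and PROS1 passed as lower after median-ratio scaling (log2 fold change -0.18, adjusted p = 8.4e-04 in limma) and after quantile normalization (-0.09, adjusted p = 0.036). Whether PROS1 passed thus depends on the scaling. PROS1 has a near-identical pseudogene copy, so reads could be split between them and its level is uncertain. The ratio of PROS1 to PROC, which a scaling factor for each library does not change, was 5.77 and 6.26 with the control guide and 7.5 and 7.69 in METTL16 KO (exact two-sided permutation p = 0.33).

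F7 and F10 are followed on chromosome 13 by PROZ, which encodes protein Z, another vitamin K-dependent protein, which binds an inhibitor of factor X. PROZ measured 11.95 and 11.21 TPM in the sgNS libraries, against 6.26 and 6.25 TPM in METTL16 KO, with a log2 fold change of -0.88 (adjusted p = 2.8e-06 in limma), so that all 3 clustered genes fell. PROZ included, 10 further genes tested lay within 500 kb of F7 and F10, 5 with positive and 5 with negative log2 fold changes and a median of -0.02. Next to PROZ, PCID2 had a log2 fold change of 0.52 and CUL4A of 0.20. The 14 genes tested within 500 kb of F2 had a median of 0.11 and ranged from -1.12 to 1.09.

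F5 encodes factor V, the cofactor of factor X, and measured 55.22 and 54.08 TPM in the sgNS libraries, against 46.96 and 45.41 TPM in METTL16 KO. The groups were apart by several TPM. The log2 difference of -0.24 (standard error 0.046, adjusted p = 6.4e-04 in limma) was the smallest of the 9 that passed. F12 encodes factor XII, which starts the contact route and was the least abundant of the 10 transcripts in sgNS. Its transcript measured 5.09 and 5.16 TPM in the sgNS libraries, against 18.85 and 19.16 TPM in METTL16 KO, 3.71-fold higher, with a log2 difference of 1.87 (standard error 0.076, adjusted p = 4.1e-09 in limma) at percentile 98.1 of all genes. On deposited TPM F12 thus had the largest fold change of the 10 genes, close to that of FGB (1.84), but added under 20 TPM. This order depends on the processing. FGB had the larger value with a pseudocount of 1 (1.84 against 1.71 for F12) and with quantile normalization (1.91 against 1.67). The GENCODE gene model of GRK6, on the opposite strand, overlaps F12, and the strand setting of the counting is not given in the sources used here. GRK6 itself measured 37.35 and 35.08 TPM in the sgNS libraries, against 16.72 and 16.88 TPM in METTL16 KO (log2 fold change -1.10), opposite in direction to F12.

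Ordered by TPM, which is a level per transcript length, the genes ran FGG, FGA, FGB, F2, PROS1, F10, F5, PROC, F7 and F12 in sgNS. In METTL16 KO the order was FGG, FGA, FGB, PROS1, F2, F10, F5, PROC, F12 and F7, so that F2 and PROS1 changed places and so did F7 and F12. Neighbours in either order had no overlapping libraries, although FGA and FGB were close in METTL16 KO, where the lowest FGA value was 1345.29 TPM and the highest FGB value 1330.57 TPM.

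**Figure D4:**
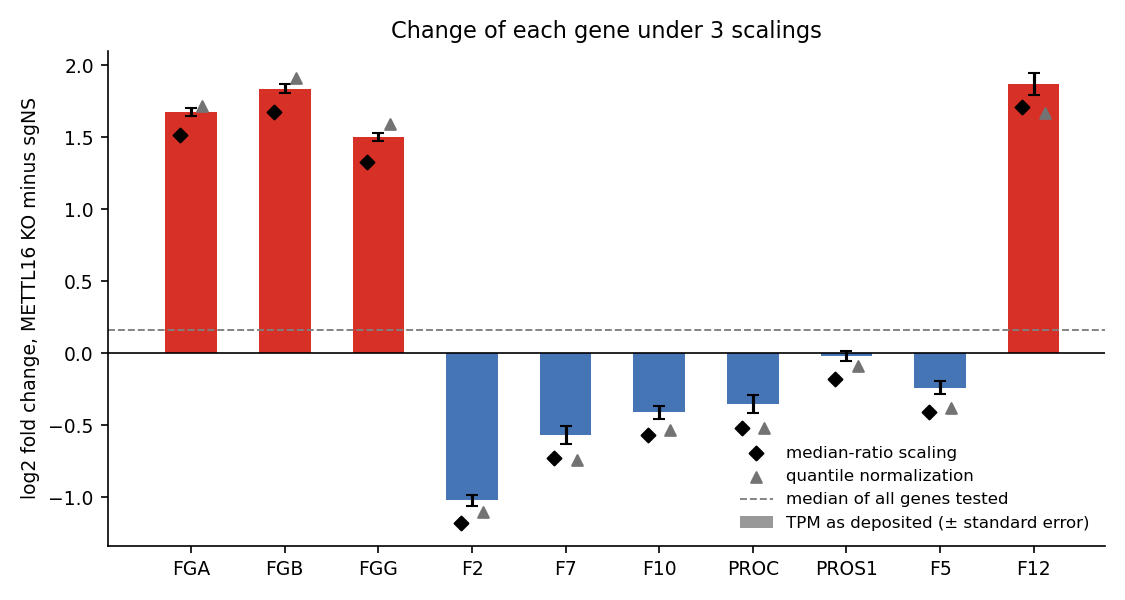
Log2 fold change of each gene, METTL16 KO minus sgNS, on deposited TPM (bars, with limma's standard error), after median-ratio scaling (diamonds) and after quantile normalization (triangles). The dashed line is the median of all genes. PROS1 sits at -0.02, -0.18 and -0.09, and the other 9 genes keep their direction.

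The other coagulation factors were listed from 9 genes, of which 5 were tested and 3 rose and 1 fell. Their median log2 fold change was 0.69, beside 0.16 for all genes. The background for the counts of this and the following lists is 50.1% of all genes tested higher and 25.6% lower. KNG1, which encodes high- and low-molecular-weight kininogen by alternative splicing, of which the former takes part in the contact route with factor XII, rose from 77.02 and 79.04 TPM with the control guide to 301.11 and 295.63 TPM in METTL16 KO (log2 fold change 1.93, adjusted p = 1.6e-11 in limma). This value is for the whole gene and does not separate the kininogen forms. F11, the next protease after factor XII, rose from 2.90 and 2.93 to 8.98 and 8.84 TPM (1.58). F3, which encodes tissue factor, rose from 6.77 and 7.18 to 10.73 and 11.93 TPM (0.69). F12, F11 and KNG1 were thus higher in METTL16 KO, while KLKB1, plasma prekallikrein, did not pass (log2 fold change 0.24, adjusted p = 0.12 in limma). F13B, the carrier subunit of factor XIII, which cross-links fibrin, fell from 12.27 and 11.67 TPM to 3.61 and 3.54 TPM (-1.72, adjusted p = 3.5e-08). F9 was listed at 0 in every library, and F8, F13A1 and VWF were at most 0.35 TPM.

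Of the 12 inhibitors of coagulation and their cofactors, 10 were tested, and 7 rose and 3 fell. Of all genes tested, 50.1% were higher and 25.6% lower. The median log2 fold change of this list was 0.78. SERPINC1, which encodes antithrombin, the main inhibitor of thrombin and factor X, rose from 249.50 and 252.64 TPM to 455.60 and 457.61 TPM (0.86). SERPINA5, the protein C inhibitor, rose from 149.48 and 151.97 TPM to 450.79 and 447.80 TPM (1.58), and SERPIND1, heparin cofactor II, rose by 0.69. C4BPB, the beta chain of C4b-binding protein, which carries protein S in plasma, rose from 15.09 and 12.91 TPM to 111.39 and 114.09 TPM (3.0, adjusted p = 6.0e-11 in limma), and its alpha chain C4BPA had a log2 fold change of 1.06. For these genes all METTL16 KO libraries were above all sgNS libraries. TFPI, the inhibitor of the tissue factor and factor VII complex, fell from 103.99 and 114.32 TPM to 73.82 and 69.51 TPM (-0.61, adjusted p = 1.5e-06), while TFPI2 measured 0.92 and 1.95 TPM in the sgNS libraries, against 9.61 and 10.25 TPM in METTL16 KO (2.79). PROZ and SERPINA10, which encodes the protein Z-dependent protease inhibitor, fell together, with log2 fold changes of -0.88 and -0.29.

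Fibrin is dissolved by plasmin, and of 10 listed genes of fibrinolysis 7 were tested, with 3 higher, 2 lower and 2 that did not pass (3 higher and 4 lower after median-ratio scaling). PLG, the zymogen of plasmin, rose from 35.61 and 32.61 TPM to 61.78 and 61.92 TPM (log2 fold change 0.86). HRG, a plasminogen-binding plasma protein, rose from 1.30 and 1.77 TPM to 10.49 and 11.89 TPM (2.80), and the urokinase gene PLAU had a log2 fold change of 4.27. CPB2, which protects fibrin from plasmin, fell from 134.36 and 149.02 TPM to 77.83 and 75.07 TPM (-0.89, adjusted p = 6.1e-08 in limma). SERPINF2, which encodes antiplasmin, had 0.06 with an adjusted p of 0.22. The median of the list was 0.06, and -0.11 after median-ratio scaling. Among the fibrinogen-like genes, FGL1 rose from 316.54 and 322.41 TPM to 650.17 and 640.73 TPM (1.01, beside 1.50 to 1.84 for the chains), while ANGPTL8 had -1.85.

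The vitamin K cycle and the proteases that remove propeptides were listed with 7 genes, all tested, of which 2 rose and 4 fell. GGCX, the carboxylase that modifies prothrombin, factors VII and X and proteins C and S, fell from 85.83 and 81.00 TPM to 52.38 TPM in both METTL16 KO libraries (log2 fold change -0.67, adjusted p = 2.2e-07 in limma). VKORC1, the reductase that warfarin blocks, had -0.22 (adjusted p = 6.6e-04 in limma) and its paralog VKORC1L1 had -0.27 (adjusted p = 5.1e-04). FURIN, a propeptide-cleaving protease, rose from 210.95 and 182.14 TPM to 295.65 and 300.15 TPM (0.60). Of the other carboxylated proteins 3 of 9 were tested, PRRG2 and PRRG4 higher and PROZ lower. PRRG2 and PRRG4 are membrane proteins, and their log2 fold changes were 0.74 and 0.87. LMAN1 and MCFD2 form the receptor that carries factors V and VIII out of the endoplasmic reticulum, and they moved in opposite directions. LMAN1 fell from 204.71 and 214.41 TPM to 143.88 and 136.15 TPM (-0.58), whereas MCFD2 rose from 98.78 and 103.22 TPM to 146.29 and 144.74 TPM (0.53). Of the 8 genes of this secretion list 3 were higher and 4 lower (2 higher after median-ratio scaling), with a median of -0.07. Of the 4 receptors for thrombin and related proteases 3 were tested and 2 rose. F2R had 0.37 and did not pass after quantile normalization (0.18, adjusted p = 0.077 in limma). F2RL1 measured 0.21 and 0.36 TPM in the sgNS libraries, against 4.13 and 5.79 TPM in METTL16 KO (3.72, and 3.05 after quantile normalization). F2RL1 met the minimum mean of 1 TPM only through its METTL16 KO values, so the size of its change is uncertain.

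**Figure D5:**
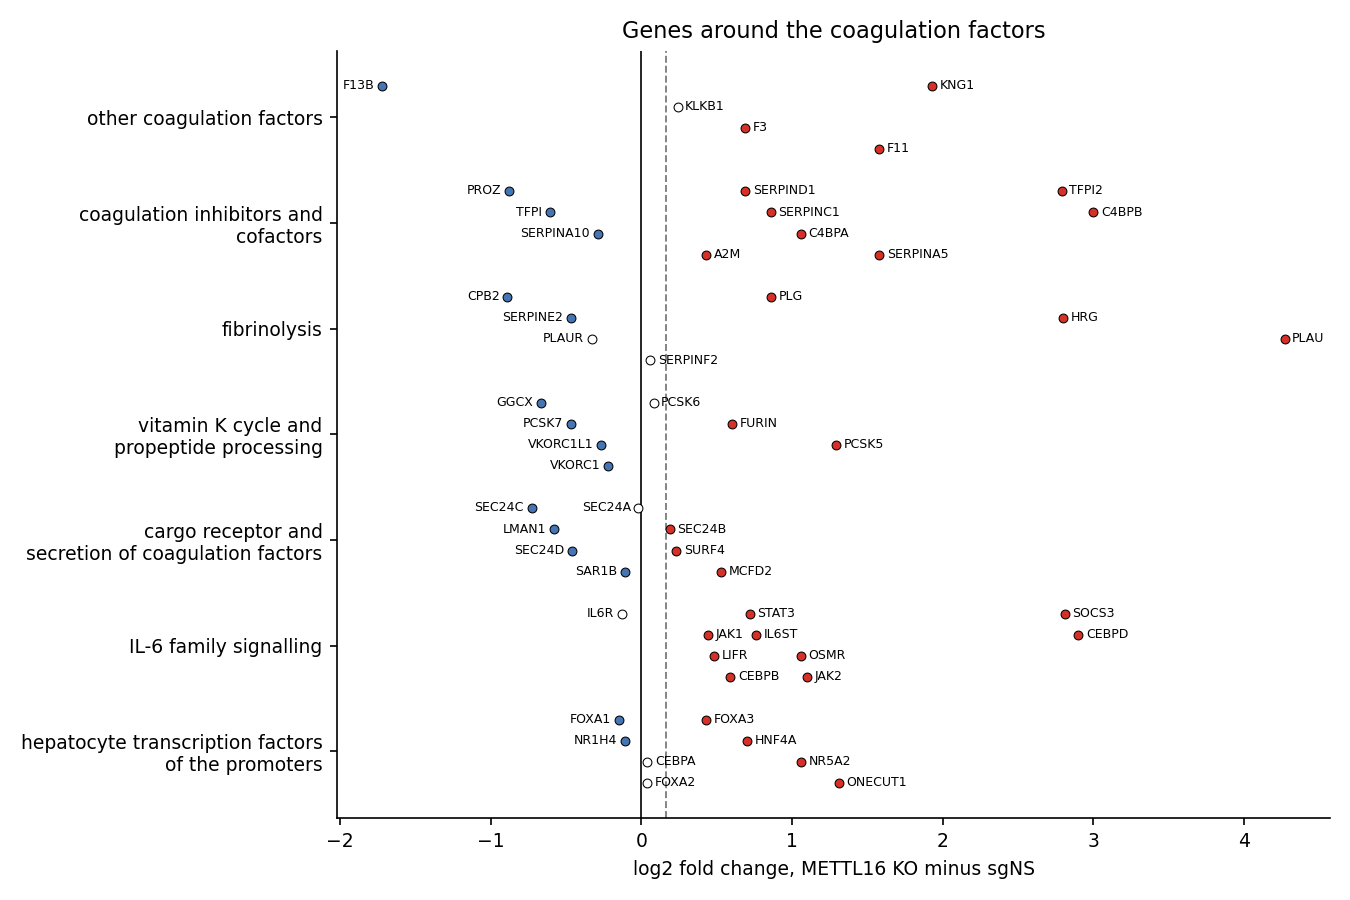
Log2 fold change of the genes tested in 7 lists around the coagulation factors. Filled points passed an adjusted p of 0.05 in limma (red higher, blue lower in METTL16 KO), open points did not, and the dashed line is the median of all genes, 0.16. Most genes of the interleukin-6 list lie to the right of that line, while those of the vitamin K list lie on both sides.

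Of the 11 genes of interleukin-6 family signalling, which acts on the fibrinogen genes in hepatocytes, 10 were tested and 9 rose. Of all genes tested, 50.1% were higher. The list had a median of 0.74 on the log2 scale, beside 0.16 for all genes. CEBPD, a C/EBP factor of the acute phase, rose from 47.47 and 48.84 TPM with the control guide to 357.42 and 364.37 TPM in METTL16 KO (2.90, adjusted p = 2.0e-12 in limma). SOCS3, a feedback inhibitor and target of STAT3, rose from 1.49 and 1.48 TPM to 10.74 and 11.25 TPM (2.81). STAT3 had 0.72, the shared receptor chain IL6ST 0.76, the oncostatin M receptor OSMR 1.06 and CEBPB 0.59. IL6R, the receptor chain for interleukin-6 itself, had -0.13 with overlapping libraries and an adjusted p of 0.21, and IL6 was listed at 0 in 3 libraries and at 0.07 TPM in METTL16 KO replicate 1. Of the 8 hepatocyte transcription factors listed 4 rose, 2 fell and 2 did not pass, with a median of 0.24. After median-ratio scaling 4 of them rose and 4 fell. HNF4A rose from 172.23 and 159.96 TPM to 266.32 and 273.07 TPM (0.70) and ONECUT1 from 41.59 and 40.66 TPM to 101.15 and 102.76 TPM (1.31). The 2 that fell were FOXA1 with -0.15 (adjusted p = 0.0055 in limma) and NR1H4 with -0.11 (adjusted p = 0.011). CEBPA had 0.04 (adjusted p = 0.37 in limma) and FOXA2 0.04 (adjusted p = 0.44). After median-ratio scaling both passed as lower, with log2 fold changes of -0.13 for CEBPA and -0.13 for FOXA2, and IL6R passed as lower with -0.29. No link between these factors and the coagulation genes was tested.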

How the data were processed

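RNA-seq was performed on 4 libraries of Huh7 cells, 2 per group. Groups and replicate numbers were taken from the sample titles, and columns were matched to samples by name. Per the paper and the labels, the authors used Cutadapt for trimming, STAR for alignment to GRCh38 and RSEM for gene values, with versions and annotation not given in the sources used here. The deposited values are TPM with 2 decimals. The methods call them RPKM, but each library sums to 1000000. Depth is unknown, and precision rests on the spread between 2 libraries.

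Log2(TPM + 0.1) of 11971 genes (minimum mean 1 TPM) was compared by limma 3.58.1 (lmFit, eBayes with trend, no block) in R 4.3.3, with Benjamini-Hochberg adjustment, and checked on simulated data. Ratios were compared by an exact permutation test. Gene positions are those of GENCODE release 44 (GRCh38), and promoter windows, found for all 10 genes, are from RefSeq. For FGB and PROC, which had more than 1 window, that at the GENCODE start was used. Motifs were chosen after the windows were read. The rule for named genes took METTL16, the 10 genes, up to 3 largest rises and 3 largest falls past an adjusted p of 0.05 in each other list, any inhibitor, interleukin-6 gene or transcription factor, and neighbours within 500 kb, and not all are named. Some list genes and a motif are not reported here and were left out of the counts. Other genes named were chosen after their values were seen. The 10 genes and all lists were chosen with earlier results of these data known. The alternatives were pseudocounts of 1 and 0.01, other filters (all genes above 0, a mean of 5 TPM), scaling by median ratios, quantile normalization, a replicate block, limma without trend, and each library left out. Figures were drawn with Python 3.11.15 and matplotlib 3.10.9.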

Additional observations from a re-analysis of the deposited data

How the results depend on the processing

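Of the 120 values for the 10 genes under 12 alternatives, 117 kept their direction and their side of an adjusted p of 0.05 in limma, and the exceptions were all in PROS1. Of these values, 10 come from the replicate block, which cannot move a fold change here. PROS1 passed as lower with median-ratio scaling (-0.18, adjusted p = 8.4e-04) and quantile normalization (-0.088, adjusted p = 0.036), and with single libraries left out its log2 fold change ranged from -0.038 to 0.0064, above 0 without METTL16 KO replicate 2. The count of lower genes at the fold threshold, 1 in the main comparison, was between 0 and 1 with single libraries left out, and F2 was lost without sgNS replicate 1. With a pseudocount of 1 the log2 differences of the chain ratios were -0.16 (FGA/FGB), -0.34 (FGG/FGB) and -0.18 (FGG/FGA). With 2 libraries per group, leaving 1 out or pairing by number is no test of their stability. Over the whole table, 920 genes were higher and 449 lower at the fold threshold, and 1390 higher when all genes above 0 were tested, 575 higher with a minimum mean of 5 TPM, and 582 higher and 692 lower with quantile normalization. The first 2 settings also change which genes were tested. The causes of these differences were not tested. Higher genes made up 66.2% of the calls past an adjusted p of 0.05 on deposited TPM, 49.9% after median-ratio scaling and 51.0% after quantile normalization.

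Same-numbered libraries deviated from their group means with a correlation of -0.0445 across 11971 genes, and there are only 2 pairs, so the numbers were not taken to pair the samples. In a fit with a replicate block the log2 fold changes are the same by construction (1.68 for FGA and -1.02 for F2). This fit leaves 1 residual degree of freedom and gave adjusted p-values in limma as low as 2.5e-115 for F2 and 0 to machine precision for FGA, so its calls (4 of the 10 genes higher and 5 lower) say nothing about stability. A log2 fold change at low TPM, as for F12, depends on the pseudocount, from 1.71 with 1 to 1.89 with 0.01.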
